A study of Mus musculus with 6 samples.

Results

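Genes of 10 enzymes of glycolysis were examined in lenses of newborn mice: Hk1, Hk2, Gpi1, Pfkl, Pfkp, Aldoa, Pgk1, Eno1, Pkm and Ldha. All probe sets assigned to exactly 1 of these symbols were taken. They were 16 probe sets of 8 genes, out of 12393 genes on the array. Gpi1 and Eno1 had no probe set of their own symbol and were not analysed here. RNA came from P0 lenses of 2 groups with 3 arrays each, 6 in all: Le-AP-2alpha conditional mutants, which target Tfap2a (Tcfap2a in the labels, the gene of transcription factor AP-2alpha), and their wild-type littermates. The Cre driver, the strain, and whether a sample was 1 animal or a pool are not given in the sources used here. Le is the usual short name of a Cre line driven by a Pax6 enhancer, active in the surface ectoderm and the lens that forms from it, so cells of other origin would keep the gene. Since separate animals are not stated for the samples, the p-values cover only the spread among them, which may be technical.

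Glycolysis splits glucose into pyruvate in the cytosol and yields ATP without oxygen. The lens has no blood vessels of its own after development, its fibre cells lose their mitochondria as they mature, and most of its glucose is turned into lactate. Hexokinases (Hk1, Hk2) trap glucose as glucose-6-phosphate, phosphofructokinases (Pfkl, Pfkp) commit it to the pathway, aldolase (Aldoa) splits the sugar, phosphoglycerate kinase (Pgk1) and pyruvate kinase (Pkm) make ATP, and lactate dehydrogenase (Ldha) reduces pyruvate to lactate and regenerates NAD+. Several of these genes are known targets of the hypoxia inducible factor HIF1, whose sites hold the core ACGTG or GCGTG.

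Promoters are shown for 4 of the genes: the hexokinase and the platelet phosphofructokinase for which all mutants lay apart from 2 of the 3 wild types, the liver phosphofructokinase with the widest gap between wild-type arrays, and Ldha. Each line gives the 250 bases before the first start that RefSeq lists (GRCm38.p6), 5′ to 3′ on the strand of the gene, with ACGTG and GCGTG on either strand in capitals.
Hk2, chr6:82774455-82774704, minus strand: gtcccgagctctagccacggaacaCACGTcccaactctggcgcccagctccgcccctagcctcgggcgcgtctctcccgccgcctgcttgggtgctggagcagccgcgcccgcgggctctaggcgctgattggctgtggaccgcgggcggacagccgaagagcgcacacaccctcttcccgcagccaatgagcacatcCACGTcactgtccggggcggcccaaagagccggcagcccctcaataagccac
Pfkl, chr10:78009808-78010057, minus strand: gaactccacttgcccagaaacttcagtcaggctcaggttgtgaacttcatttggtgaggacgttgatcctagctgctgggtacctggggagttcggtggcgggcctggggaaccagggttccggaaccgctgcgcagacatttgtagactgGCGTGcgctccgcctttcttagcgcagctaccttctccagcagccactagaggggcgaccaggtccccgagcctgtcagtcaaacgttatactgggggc
Pfkp, chr13:6648772-6649021, minus strand: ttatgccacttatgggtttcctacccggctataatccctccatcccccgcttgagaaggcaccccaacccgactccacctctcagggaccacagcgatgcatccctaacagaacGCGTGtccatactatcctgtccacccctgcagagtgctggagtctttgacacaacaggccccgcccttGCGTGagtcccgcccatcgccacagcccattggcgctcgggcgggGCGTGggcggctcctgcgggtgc
Ldha, chr7:46845554-46845803, plus strand: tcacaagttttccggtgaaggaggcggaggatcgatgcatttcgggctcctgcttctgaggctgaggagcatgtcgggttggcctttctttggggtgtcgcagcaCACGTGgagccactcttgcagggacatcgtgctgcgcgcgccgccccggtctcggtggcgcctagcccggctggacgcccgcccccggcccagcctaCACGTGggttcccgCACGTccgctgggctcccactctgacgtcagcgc
Hk2 held 2 matches and Ldha 5, all of ACGTG, and 2 pairs of those in Ldha overlap because CACGTG reads the same on both strands. Pfkl held 1 match and Pfkp 3, all of GCGTG. Pgk1 held 2 of ACGTG. Hk1, Aldoa and Pkm held none in the window of their first listed start. A match was thus found for 5 of the 8 measured genes, and for 38.6% of 27025 genes with a window of that length. At any listed start all 8 genes held a match, as did 41.5% of the genes with a window. Hk1, Aldoa and Pkm have several listed starts and held theirs at later ones only. Genes with more starts have more windows, and the 41.5% is not matched for that. A match describes the letters only.

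The labels and arrays were checked first. Over all probe sets, wild-type replicate 1 correlated with the other arrays at a Pearson r of 0.926 to 0.945, below the 0.974 to 0.985 found among those 5. Lens fibre markers were bright on every array, with a summed intensity of 54289 to 65208 in mutants and 57219 to 74118 in wild types over 8 measured genes. The values below are log2 of the deposited intensity of each gene's brightest probe set unless another is named, and differences are mutant minus wild type in log2 units with the standard error (SE) of limma's fit. Levels of different genes are not compared, since each probe set has its own brightness. A gene is called dim where its mean lies below the median probe set, at 5.26.

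No glycolysis enzyme passed the test. limma called 0 of the 8 genes, and 0% of all 12393 genes, at an adjusted p under 0.05, and each of the 16 probe sets had a limma adjusted p of 0.999. At an unadjusted p under 0.05 there were also 0 of the 8, against 3.85% of all genes. The groups overlapped for each of the 8, whereas they did not overlap for 8.8% of all genes. By direction 2 of the 8 had higher and 6 lower means in mutants, with a median difference of -0.26, beside -0.01 over all genes. Without wild-type replicate 1 the counts turned: 7 were higher and 1 lower, with a median of 0.14, beside 0.00 over all genes. Of all genes 47.8% were higher with all arrays and 50.6% without that array. In the fit without it Pfkl, Aldoa, Pgk1, Pkm and Ldha lay within 1 SE of 0. All of these but Pfkl did so with all arrays too, so their signs give no direction.

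The wild-type arrays were the more spread out, with a larger SD than the mutants for 7 of the 8 genes, all but Ldha. Wild-type replicate 1 had the highest level of 6 of the 8 genes (Hk1, Pfkl, Aldoa, Pgk1, Pkm and Ldha), and the lowest of 0. Over all genes it was the highest array for 33% and the lowest for 25.8%. Wild-type replicate 2 had the lowest level of 5 of the 8 genes, and of 21% of all genes. In the same wild-type replicate 1 the summed intensity of 6 lens epithelium markers was 5058, below the 8010 and 8963 of the remaining wild types. The sum is weighted to the brightest gene, Gja1. Gja1, Pax6, Pdgfra and Cdh1 were below the remaining wild types there, whereas Slc38a3 (7.08) and the dim Foxe3 (4.84) were above them. The summed intensity of 13 neural retina and neuron markers was 1292 there, against 2520 and 2640. This sum is weighted to the brightest genes, Stmn3 and Snap25, and Snap25 was at 4.98 there, against 9.30 and 9.48. The summed intensity of 4 dim red blood cell genes was higher there, 196 against 37 and 28, with 30 to 335 in mutants. The part of these cell types in the enzyme levels was not tested, and in whole lenses fewer cells of a type and less RNA per cell cannot be told apart.

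**Figure D1:**
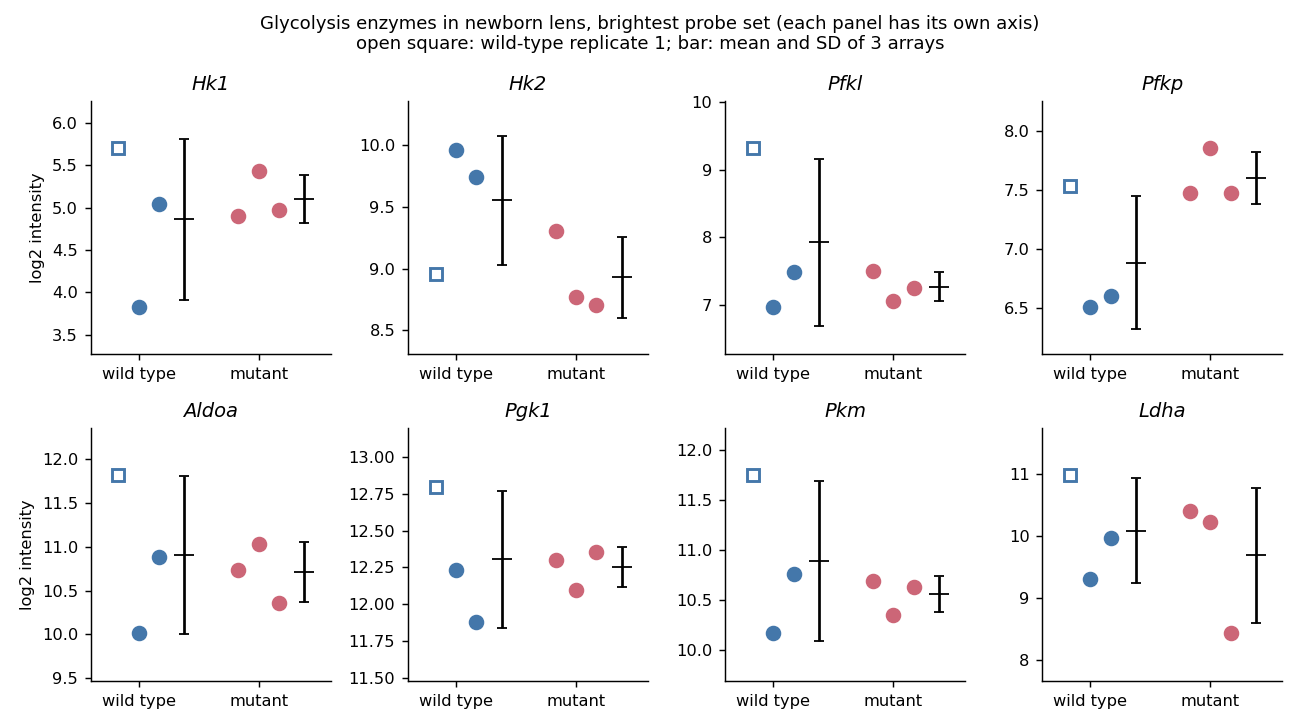
Log2 intensity of the 8 measured enzymes in each array, in panels with separate axes; points are arrays, the open square is wild-type replicate 1, and bars are mean and SD of 3 arrays. The square is the top point for 6 enzymes, lies among the mutants for Hk2 and Pfkp, and reaches 9.31 for Pfkl where no other array exceeds 7.50.

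Hk2 had lower values in mutants than in wild-type replicates 2 and 3, and Hk1 showed no direction. Hk2, the inducible hexokinase known from muscle and from hypoxic cells, was at 9.31, 8.77 and 8.71 in mutant replicates 1 to 3 and at 8.96, 9.96 and 9.74 in wild-type replicates 1 to 3. Wild-type replicates 2 and 3 lay above every mutant, and wild-type replicate 1 lay among the mutants. Mutants averaged 8.93 ± 0.33 and wild types 9.55 ± 0.53 (SD, n = 3), a difference of -0.62 ± 0.32 (SE) with a 95% interval of -1.40 to 0.15. Without wild-type replicate 1 it was -0.92 ± 0.25, with an interval of -1.53 to -0.32 and a limma adjusted p of 0.752. Hk1, the hexokinase of most tissues and of neurons, was dim. Its brighter probe set was at 4.90, 5.43 and 4.97 in mutants and at 5.70, 3.83 and 5.05 in wild types. The wild-type values spanned all the mutant values, and the difference was 0.24 ± 0.48. The second Hk1 probe set lay between 2.99 and 3.43 on all arrays, with a difference of -0.19 ± 0.18. A further probe set that the annotation assigns to Hk1 together with other genes was not used.

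The phosphofructokinases also differed from each other in pattern. Pfkp, the platelet type, was at 7.48, 7.85 and 7.47 in mutants and at 7.53, 6.51 and 6.60 in wild types. Wild-type replicate 1 was at the level of the mutants, and the other wild types lay below every mutant. Mutants averaged 7.60 ± 0.22 and wild types 6.88 ± 0.57 (SD, n = 3), a difference of 0.72 ± 0.32 (SE) with a 95% interval of -0.04 to 1.48. Without wild-type replicate 1 it was 1.05 ± 0.21, with an interval of 0.54 to 1.55 and a limma adjusted p of 0.697. The second Pfkp probe set was dim, between 2.60 and 3.12, with a difference of -0.03 ± 0.20, and with the probe sets averaged the Pfkp difference was 0.35. Pfkl, the liver type, was at 7.50, 7.07 and 7.26 in mutants and at 9.31, 6.98 and 7.49 in wild types. All arrays but wild-type replicate 1 lay close together, and that array stood 2.08 above the mean of the other wild types. Its second probe set showed the same gap, 1.97. The difference was -0.65 ± 0.59 with all arrays and 0.04 ± 0.24 without wild-type replicate 1, with an interval of -0.55 to 0.63.

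Hk2 and Pfkp were the members whose groups did not overlap once wild-type replicate 1 was left out. They were 2 of the 8, or 25%, and 21.7% of all genes did not overlap among these 5 arrays. At an unadjusted p under 0.05 there were also 2 of the 8 members, against 6.29% of all genes, and 0 of either passed the adjusted threshold. Markers of some other cells moved with the groups. All 13 measured neural retina and neuron genes had higher means in mutants. The summed intensity was 4309 to 6029 in mutants and 1292 to 2640 in wild types. Every mutant lay above every wild type for Stmn3, Snap25, Elavl3, Stmn2, Tubb3, Gap43 and the dim Nefm, as for 4.22% of all genes. Stmn2 lay at 7.83 to 9.52 in mutants and 6.79 to 7.67 in wild types. The groups overlapped for Crx, at 7.14 to 7.76 in mutants and 4.89 to 7.21 in wild types. They also overlapped for Nefl, Elavl4, Sncg and the dim Syt1 and Rcvrn. Without wild-type replicate 1 Elavl4 differed by -0.06. All 14 macrophage and leukocyte genes had higher means in mutants too, summing to 4231 in mutant replicate 2, which had the highest Pfkp value, and to 1019 to 1359 on the other arrays. Leaving out mutant replicate 2 alone gave a Pfkp difference of 0.59 and a Hk2 difference of -0.55, and leaving it out along with wild-type replicate 1 gave 0.92 and -0.84. Of 12 corneal stroma and mesenchyme genes 11 had higher means in mutants, summing to 509 to 1063 in mutants and 380 to 601 in wild types. Of the 8 lens fibre genes 7 had lower means in mutants, but Cryba1, Cryaa, Crygd and Crybb2 lay within 1 SE of 0. Dnase2b (-1.44) and Bfsp1 (-0.65) had every mutant below every wild type, as did 4.58% of all genes. Gja3 differed by -0.72, with groups that overlapped. Of the 6 lens epithelium genes 2 had higher and 4 lower means in mutants, summing to 7272 to 8014 in mutants and 5058 to 8963 in wild types. Cdh1 (-1.29), Slc38a3 (-1.04) and the dim Foxe3 (-0.71) had every mutant below every wild type. Pdgfra differed by -0.61, Gja1 by 0.20 and Pax6 by 0.47, with groups that overlapped. Among blood vessel endothelium genes 4 were higher and 4 lower in mutants, and among pigment cell genes 4 and 3. Red blood cell genes gave 2 and 2, and the dim skeletal muscle genes 1 and 8. limma called 0 genes of these lists. How far such cells entered the enzyme values was not tested.

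For the enzymes of the middle of the pathway the wild-type values reached above and below the mutants. Aldoa, the aldolase of muscle and most tissues, was at 10.74, 11.03 and 10.36 in mutants and at 11.81, 10.01 and 10.88 in wild types. The wild types held both the highest and the lowest value. The groups differed by -0.19 ± 0.46 (SE), or by 0.26 ± 0.33 once wild-type replicate 1 was dropped. The other Aldoa probe sets differed by -0.28 to -0.17, and in all 4 Aldoa probe sets wild-type replicate 1 was 1.37 to 1.44 above the mean of the other wild types. Names of these 4 end in _x_at, which marks probes that can be shared with other sequences, so they are not independent readings.

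Pgk1, the X-linked kinase that makes the first ATP of the pathway, was at 12.30, 12.10 and 12.35 in mutants and at 12.80, 12.24 and 11.88 in wild types. The mutant values lay inside the wild-type range. The difference was -0.05 ± 0.27, with a 95% interval of -0.70 to 0.59, the narrowest among the 8 enzymes. The other Pgk1 probe sets differed by -0.19 ± 0.30 and -0.23 ± 0.37. They are _x_at sets, so the readings may not be independent. Wild-type replicate 1 was 0.74, 0.93 and 1.26 above the other wild types in the 3 probe sets, with the smallest gap in the brightest.

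Pyruvate kinase and lactate dehydrogenase close the pathway. Pkm, whose splice forms the single probe set is not known to separate, was at 10.69, 10.36 and 10.64 in mutants and at 11.75, 10.17 and 10.76 in wild types. The mutants lay between wild-type replicates 2 and 3, below replicate 1. The difference was -0.33 ± 0.40, and 0.10 ± 0.25 without wild-type replicate 1. Ldha was at 10.39, 10.23 and 8.43 in mutants and at 10.98, 9.30 and 9.97 in wild types. Mutant replicate 3 was the lowest array by 0.87 and wild-type replicate 1 the highest. Mutants averaged 9.68 ± 1.09 and wild types 10.08 ± 0.84 (SD, n = 3), a difference of -0.40 ± 0.64 (SE) with a 95% interval of -1.94 to 1.14. The difference was 0.23 without mutant replicate 3 and 0.05 without wild-type replicate 1. Mutant replicate 3 was the lowest of the 6 arrays for Hk2 as well (8.71) and the lowest mutant for Aldoa (10.36), but not for Pkm or Pgk1 (10.64 and 12.35).

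**Figure D2:**
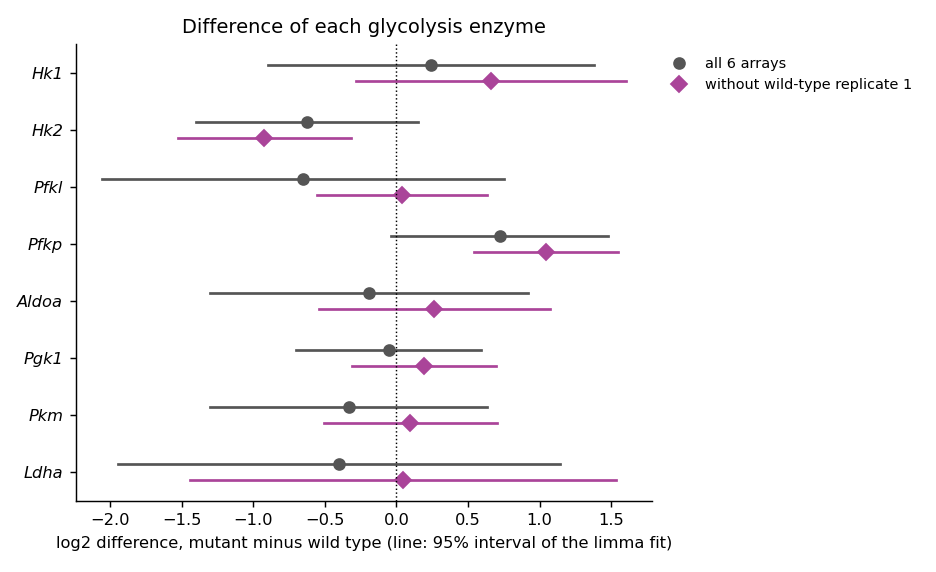
Log2 difference of each enzyme, mutant minus wild type, with the 95% interval of the limma fit, for all 6 arrays (circles) and without wild-type replicate 1 (diamonds). All 8 intervals include 0 with all arrays; without that array those of Hk2 (-1.53 to -0.32) and Pfkp (0.54 to 1.55) do not, at adjusted p of 0.752 and 0.697.

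The remaining enzymes of the pathway were taken as a list of 17, of which 13 were measured. limma called 0 of them at an adjusted p under 0.05, and 1 had an unadjusted p under 0.05. Means were higher in mutants for 2 and lower for 11, with a median difference of -0.09, and without wild-type replicate 1 for 7 and 6, with a median of 0.00. Wild-type replicate 1 was the highest array for 6 of the 13. Among them Tpi1, triose phosphate isomerase, was at 10.50 on that array, above wild-type replicates 2 and 3 (9.14 and 9.35) and the mutants (8.96 to 9.87). Eno2, the enolase of neurons, was at 11.88 there, against 10.73 to 11.18 elsewhere. Pfkm, the muscle phosphofructokinase, differed by 0.06 ± 0.29 (SE) and Pgam1, phosphoglycerate mutase, by -0.01 ± 0.24. The muscle mutase Pgam2 differed by -0.98 ± 0.42, with groups that overlapped.

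Aldoc, the aldolase of brain, had the lowest p of that list. It was at 9.39, 9.61 and 10.11 in mutants and at 10.59, 10.40 and 10.76 in wild types. Every mutant lay below every wild type, as for 4.58% of all genes in that direction. The difference was -0.88 ± 0.24 with all arrays and -0.87 ± 0.27 without wild-type replicate 1, with a limma adjusted p of 0.999 and 0.796. A second Aldoc probe set differed by -0.53 ± 0.40, with mutant replicate 3 among the wild types. The neuron markers named above had the opposite direction, higher in mutants. Whether neurons entered the Aldoc values was not tested.

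Ldhb, the lactate dehydrogenase subunit of heart and brain, differed by 0.79 ± 0.37. Its brightest probe set was at 8.30, 9.06 and 8.22 in mutants and at 7.74, 7.17 and 8.30 in wild types. The groups overlapped by wild-type replicate 3 there, and did not overlap in the 3 other Ldhb probe sets, which differed by 0.64 ± 0.27, 0.66 ± 0.20 and 0.76 ± 0.26. Of all genes 4.22% had every mutant above every wild type, and the first and last of these probe sets are _x_at sets, so the readings are not independent. The adjusted p was 0.999 for each by limma.

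**Figure D3:**
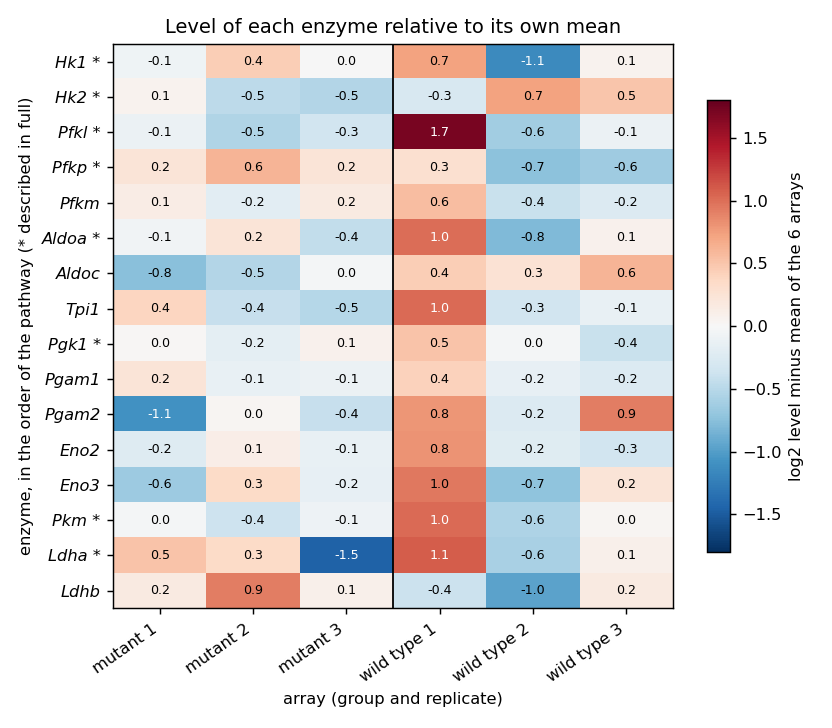
Log2 level of each enzyme on each array minus its mean over the 6 arrays, in the order of the pathway from hexokinase to lactate dehydrogenase, with the enzymes described in full marked by an asterisk. The column of wild-type replicate 1 is above the mean for 14 of the 16 genes shown, all but Hk2 (-0.28) and Ldhb (-0.39), and the lowest cell is Ldha in mutant replicate 3 (-1.45).

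Gapdh, the enzyme between aldolase and Pgk1, was read from the array's own control probe sets only. Its 3′ control lay between 12.49 and 12.70 on all 6 arrays, with wild-type replicate 1 at 12.69. It thus showed no gap of wild-type replicate 1 like those of Aldoa, Pkm and Pgk1. The middle and 5′ controls of Gapdh ranged from 11.92 to 12.35 and from 11.32 to 11.93, with wild-type replicate 1 at 12.29 and 11.62. The 3′ minus 5′ difference, a measure of RNA or labelling quality, was 1.07 on wild-type replicate 1 and 0.73 to 1.39 on the other arrays.

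Transporters that bring glucose in and carry lactate out were measured for all 12 listed genes, and 0 were called. Slc2a1, the glucose transporter of most tissues, was at 13.34, 13.22 and 13.39 in mutants and at 13.24, 13.34 and 13.36 in wild types. The difference was 0.00 ± 0.17, with a 95% interval of -0.39 to 0.40, at a level near the top of the arrays (13.90 to 13.97), where differences can be compressed. Slc2a3, the glucose transporter of neurons, was at 7.41, 6.99 and 7.05 in mutants and at 5.25, 6.43 and 6.34 in wild types. Every mutant lay above every wild type, as for 4.22% of all genes in that direction. The difference was 1.15 ± 0.35, and 0.77 ± 0.21 without wild-type replicate 1, with a limma adjusted p of 0.999 and 0.754. A second Slc2a3 probe set differed by 1.65 ± 0.45 and the 2 dim ones by 0.20 ± 0.25 and -0.06 ± 0.20. The brightest Slc2a3 probe set is an _x_at set, so the readings may not be independent. Slc2a10, a dim member of the list, differed by -0.71 ± 0.48, with -0.32 when wild-type replicate 1 was dropped and -1.22 when wild-type replicate 2 was. Wild-type replicate 1 was the lowest array for the brighter Slc2a3 probe sets, though not for the dim ones, and for the summed neuron markers. The part of neurons in the Slc2a3 values was not tested.

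Slc16a1 and Slc16a3, which carry lactate, were the most variable of the 12 transporters by the range over the 6 arrays. Slc16a1 (MCT1) was at 10.41, 9.82 and 8.63 in mutants and at 6.77, 10.81 and 10.42 in wild types. Slc16a3 (MCT4) was at 6.67, 5.26 and 5.04 in mutants and at 8.66, 5.29 and 5.75 in wild types. On wild-type replicate 1 the first was the lowest and the second the highest of the 6 arrays. The differences were 0.29 ± 1.10 and -0.91 ± 0.93 with all arrays and -0.99 ± 0.51 and 0.14 ± 0.50 without it, so that array turned the sign of both.

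**Figure D4:**
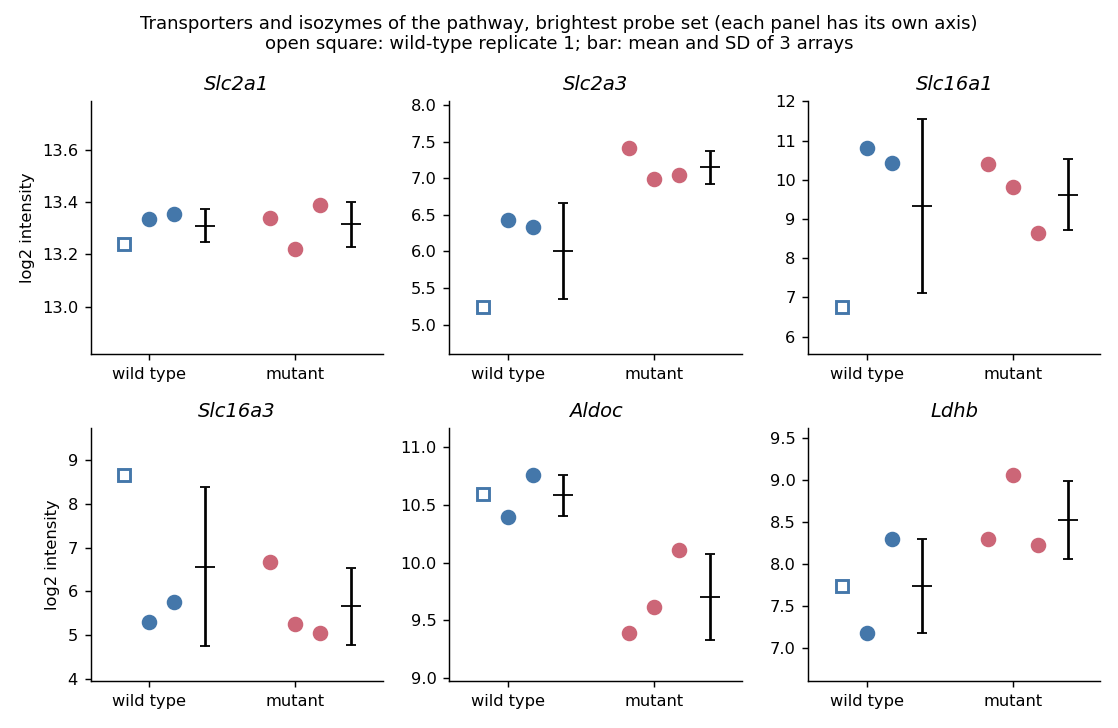
Log2 intensity of 4 transporters and 2 isozymes in each array, in panels with separate axes; symbols are as in the plot of the 8 enzymes. Slc2a1 spans 13.22 to 13.39, Slc2a3 and Aldoc separate the groups in opposite directions, and Slc16a1 and Slc16a3 put wild-type replicate 1 at 6.77 and 8.66, outside the other arrays.

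Genes around the pathway were counted in 4 further lists, with 0 called in each. Of the 9 measured genes for control by fructose-2,6-bisphosphate and for gluconeogenesis, 4 were higher and 5 lower in mutants, with a median of -0.02; Pfkfb3, which makes that activator of phosphofructokinase, differed by -0.02 ± 0.28, G6pc3 by -0.67 ± 0.34 and the dim Pcx by -0.57 ± 0.33. Without wild-type replicate 1 the latter pair differed by -0.32 and -0.25. Of the 9 genes of pyruvate entry into mitochondria 7 were higher, with a median of 0.29. Without wild-type replicate 1 there were 5 higher and 4 lower, with a median of 0.18. That array was the lowest for 55.6% of these genes, against 25.8% of all genes. The pyruvate dehydrogenase subunits Pdha1 and Pdhb differed by 0.45 ± 0.28 and 0.29 ± 0.19, or by 0.18 and 0.28 without wild-type replicate 1, and with probe sets averaged Pdhb differed by -0.06. Of the kinases that inhibit them, Pdk1 differed by -0.48 ± 0.38, and Pdk2, Pdk3 and Pdk4 by 0.26 ± 0.54, 0.23 ± 0.28 and 1.12 ± 0.85. Without wild-type replicate 1 these were -0.24, 0.85, 0.51 and 0.57. Of the 7 genes of the pentose phosphate and polyol pathways 3 were higher and 4 lower, with Pgd at -0.61 ± 0.37 and Pgls at -0.66 ± 0.63, or -0.37 and -0.45 without wild-type replicate 1.

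Hypoxia response genes outside glycolysis gave 9 higher and 7 lower of 16, with a median of 0.09, and 0.07 without wild-type replicate 1. Hif1a itself was at 10.95, 10.67 and 11.15 in mutants and at 8.68, 11.53 and 11.34 in wild types, so wild-type replicate 1, with the highest Ldha, Pgk1 and Aldoa, had the lowest Hif1a on this probe set. The difference was 0.41 ± 0.75, and -0.51 ± 0.22 without that array. A second bright Hif1a probe set put wild-type replicate 1 at 10.17 and the others at 10.27 to 10.79, and another bright one put it at 9.45 among values of 8.38 to 10.55. Vegfa, a secreted HIF target, was also lowest there, at 6.51 against 7.44 to 8.32. By brightest probe set Hif1a and Vegfa were the 2 genes of the list with their lowest level on that array. For 6 of the 16 it was the highest, among them Egln1 (11.10), Bnip3 (10.45) and the dim Car9 (4.83). A second Egln1 probe set put that array lowest, at 5.08 against 5.40 to 7.09. The dim second Vegfa probe set put it at 4.12, among values of 3.65 to 4.32. Ddit4 differed by 0.48 ± 0.30 and the dim Arnt, the partner of HIF1, by 0.35 ± 0.23.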

How the data were processed

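Lens RNA of 3 mutant and 3 wild-type samples was hybridised to 1 array each. Per the labels' protocols, column-purified total RNA was amplified (Nugen Ovation) before biotin labelling. The authors deposited probe set intensities on a linear scale. RMA is named per the submitters' processing notes, without version or settings. The genome build, and the step from RMA to that scale, are not given in the sources used here. Such processing can make differences smaller where probe sets are dim.

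The log2 of each intensity was taken with no pseudocount. Of 22690 probe sets, 64 array controls were left out and 22626 were tested, using every sample column (0 unused). The platform annotation of 2016 gave 20380 of them 1 symbol, 691 several and 1555 none. Entrez ID matched 20351 to RefSeq (GRCm38.p6), changing 0 symbols. Groups were compared with lmFit and eBayes of limma 3.58.1 (R 4.3.3), two-sided, with Benjamini-Hochberg adjustment over all probe sets and a threshold of 0.05. A gene was represented by its brightest probe set. The number of arrays limits the precision. At most 0.186% of values were equal in a pair of arrays. The fit was tested on simulated data that took the spread of the mutant arrays for each group and held no outlying array. That test thus does not cover a spread like that of the wild types.

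Members and lists were chosen with earlier results of these data known. Named were all members, the 2 genes of lowest p in each of 6 pathway lists, and a fixed set of pathway genes; Pdk2, Pdk3, Pdk4, Egln1, Bnip3, Car9 and the single marker genes were named after their values were seen. Markers of 9 cell types or tissues were summed as intensities. Alternatives were the replicate block, median centring, quantile normalisation, dim probe sets left out, a trended prior, array weights, each array left out, averaged probe sets and a threshold of 0.1. Dropping the pair of wild-type replicate 1 and mutant replicate 2 was added after seeing the data.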

Additional observations from a re-analysis of the deposited data

How the results depend on the processing

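The count of 0 called members did not change under any alternative run. Over the whole array 0 probe sets were called under each alternative except array weights, which called 7; the wild types then had weights of 0.224, 0.569 and 5.65 for replicates 1 to 3, and Hk2 and Pfkp differed by -0.79 and 0.97. With 1 array left out at a time, the median difference of the 8 enzymes ranged from -0.53 to 0.14, the highest without wild-type replicate 1. Dropping mutant replicate 2 along with wild-type replicate 1, a choice made after seeing the data, gave 0.17. Hk2 ranged from -0.92 to -0.42 and Pfkp from 0.53 to 1.05 with 1 array left out; Pfkl ranged from -1.13 to 0.04, Ldha from -0.79 to 0.23 and Hk1 from -0.27 to 0.66. With the replicate number as a block the median was -0.26 and 0 probe sets were called. The numbers are not known to pair the samples: correlations of deviations of same-numbered arrays were -0.07, -0.26 and -0.16. A difference within 1 SE of 0 was treated as having no direction, and by that rule 0 of 444 values of named genes reversed. A gene whose difference with all arrays lay within 1 SE of 0 could not reverse under the rule. The count thus does not show that the signs of such genes were stable. Without wild-type replicate 1 Pkm went from -0.33 to 0.10 and Slc16a1 from 0.29 to -0.99. Dim probe sets limit what Hk1 can show.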
